A study of Mus musculus with 2 samples.

Results

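Small nucleolar RNAs (snoRNAs) and small Cajal body RNAs were compared between Langerhans cells of 2 Il34 genotypes. The set held the genes whose platform symbol is Snord, Snora or Scarna followed by a number, read by probe sets with that single symbol. It comprised 54 of the 19937 genes with such a probe set, namely 31 box C/D genes (Snord), 20 box H/ACA genes (Snora) and 3 Cajal body RNA genes (Scarna). Members were chosen by symbol, and where a gene had several probe sets the one with the highest mean reading over both arrays was selected on that reading. This applied to 2 genes, since 56 probe sets covered the 54 genes. The group was taken up with its spread on these arrays already known, so the counts below describe it and were not tested. A further 22 probe sets carried a symbol of this kind together with other symbols, and their readings were not used. For 18 symbols these were the only probe sets.

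Box C/D snoRNAs pair with ribosomal RNA and direct the methyltransferase fibrillarin to the ribose to be methylated, and box H/ACA snoRNAs direct the pseudouridine synthase dyskerin in the same manner. A few members of both classes are needed for the cutting of the ribosomal RNA precursor rather than for its modification. Small Cajal body RNAs guide the same reactions on spliceosomal RNAs. In mammals most of these RNAs are not transcribed on their own. They are released from introns of host genes, many of which encode ribosomal proteins or are long noncoding RNAs.

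The Il34+/LacZ animals carried a single LacZ allele of Il34, the gene for a keratinocyte-derived ligand of the CSF1 receptor, and the Il34LacZ/LacZ animals carried it on both chromosomes. All mice, aged 8 to 12 weeks, had received ultraviolet light over 30 min. Langerin+ Epcam+ cells were sorted 21 days later, and neither a wild-type nor an unexposed sample was included. Mice without IL-34 are known to have few Langerhans cells in resting skin. Each genotype was measured on 1 array, and whether that array held 1 animal or a pool is not given in the sources used here. No value below has a replicate error and no test between genotypes was possible. The only error that the files hold is the disagreement between different probe sets of a gene, with an SD of 0.63 on the log2 scale, or 1.55-fold, over 614 genes. This SD was taken within the same arrays, each from 2 ng of total RNA. It holds no variation between animals or RNA preparations.

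Values are intensities on a linear scale. Differences are Il34LacZ/LacZ minus Il34+/LacZ in log2(intensity + 16), which understates the change of dim genes. The median of all probe sets on both arrays, an intensity of 48.7, served as a floor, and a gene was used where its brighter reading reached it. Folds were taken after setting readings below the floor to the floor and are then written as at least N-fold. Arrays differed by level, the upper quartile being 143 in Il34+/LacZ and 116 in Il34LacZ/LacZ, so values with a loess trend on level removed are given where they alter the result. Il34 itself, which keratinocytes make, read 39.4 and 64.4, and where its probe set lies relative to the LacZ insertion is not known. Langerhans cell markers were bright on both arrays, with Cd207 at 3153 and 1852 and all 8 listed markers above the floor. The summed reading of 8 keratinocyte markers was 4353 in Il34+/LacZ and 561 in Il34LacZ/LacZ. That of 5 measured T cell markers was 6959 and 6132, and that of 4 measured neutrophil and monocyte markers 253 and 1347. Of these 4, S100a8 read 71.9 and 552 and S100a9 103 and 699, whereas Retnlg read 35.6 and 33.1 and Csf3r 41.8 and 63.5. The part of these cells in the results below was not tested. Fewer cells of a type and less RNA per cell cannot be told apart in sorted bulk RNA. A probe set for an intronic snoRNA also matches the unspliced host transcript, and the RNeasy micro kit, which was used for extraction, is known to recover RNAs this short poorly, so mature snoRNA and precursor cannot be told apart here.

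The small nucleolar RNA genes were spread widely to both sides, with more of them lower than higher in Il34LacZ/LacZ. Of the 54 genes, 41 reached the floor and 13 did not. Among the 41, 12 were at least 2-fold lower (29.3%), against 12.1% of all 12843 genes at or above the floor. In the other direction 4 of the 41 were at least 2-fold higher (9.76%), against 1.67% of all genes. With the trend on level removed, again 12 were lower and 4 higher, against 4.92% and 4.02% of all genes, and 10 of the lower and all 4 of the higher genes were called both ways. The median difference was -0.63 for the 41 genes and -0.16 for all genes at the floor, or -0.60 and 0.03 with the trend removed. The interquartile range of the differences was 1.92 for the 41 genes and 1.11 for all genes. These shares describe the genes that passed the floor, which a gene can do through its brighter array alone. Without any floor, 16 of the 54 genes lay 2-fold or more below and 4 above, and the median was -0.59. The share of all genes was not computed in that setting. With no reading set to the floor, 15 of the 41 genes were lower and 4 higher, beside 13.2% and 2.57% of all genes at the floor. At a 4-fold threshold 5 genes were lower and 2 higher, beside 0.561% and 0.117% of all genes, and with the trend removed 2 and 2, beside 0.109% and 0.187%. At 1.5-fold, 19 were lower and 5 higher, beside 28.2% and 9.36%, and with the trend removed 16 and 8, beside 16.2% and 12.5%.

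**Figure D1:**
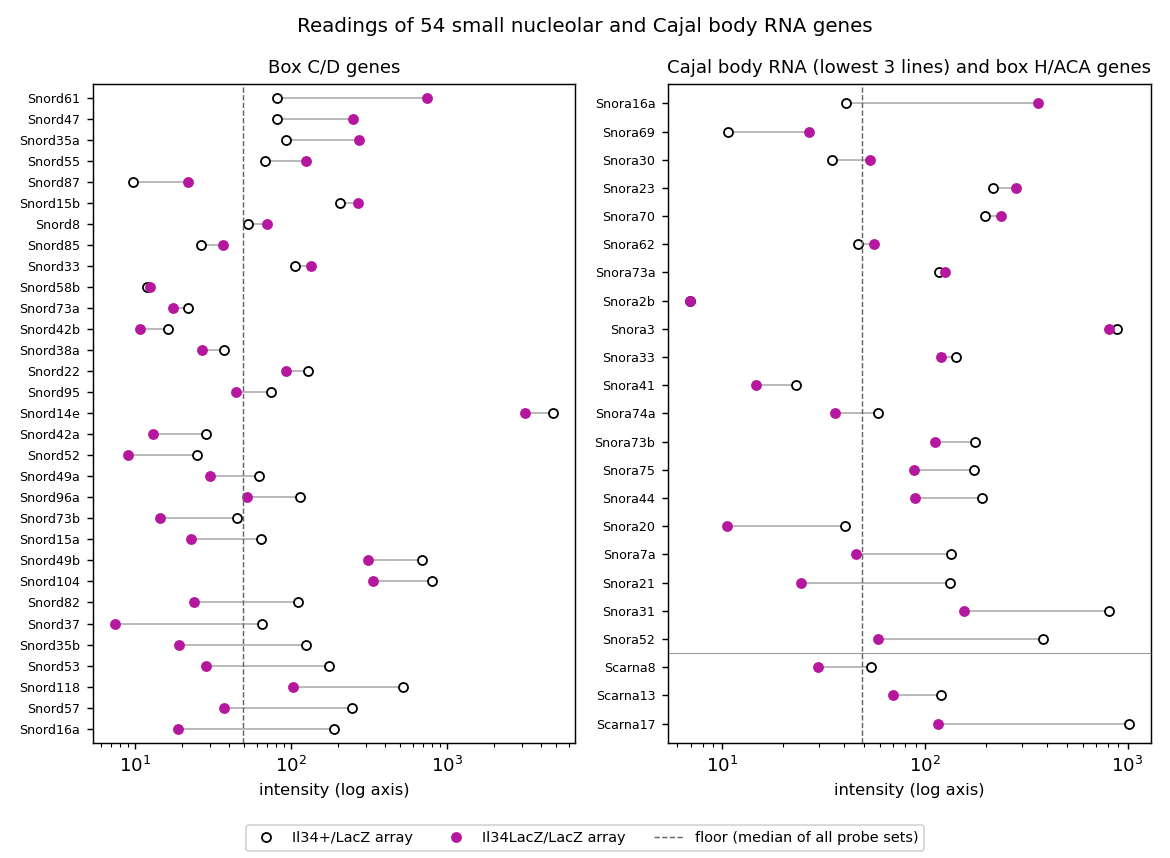
Intensity (log axis) of each of the 54 genes on the Il34+/LacZ array (open circles) and the Il34LacZ/LacZ array (filled circles), 1 line per gene in order of the difference, with the floor at 48.7 as a dashed line. The filled circles of Snord61 and Snora16a lie furthest to the right of their open circles, and those of Snord16a, Snord37 and Scarna17 furthest to the left.

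The starts of host genes are shown first, because the results turn on small RNA genes that lie within the span of 1 gene and yet read differently. The 5 hosts below, picked after their values were seen, hold members that differed from each other or from their host. Sequences are from RefSeq (GRCm38.p6) and run 5′ to 3′ on the strand of the gene, from 50 bases before the annotated start through the first 20 transcribed bases. Capitals mark the unbroken run of C and T that reaches within 5 bases of the start. A pyrimidine run at the first transcribed bases, the 5′ terminal oligopyrimidine tract, is a known trait of ribosomal protein genes and of many snoRNA hosts. Of the runs marked here, that of Snhg12 spans the annotated start, that of Rpl4 ends before it and holds no transcribed base, and the other 3 begin just after it.
Snhg12, chr4:132308628-132308697, plus strand: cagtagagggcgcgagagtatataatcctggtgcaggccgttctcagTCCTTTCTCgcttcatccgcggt
Rpl13a, chr7:45128726-45128795, minus strand: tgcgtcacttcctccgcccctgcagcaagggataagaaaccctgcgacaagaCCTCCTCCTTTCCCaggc
Rpl4, chr9:64173337-64173406, plus strand: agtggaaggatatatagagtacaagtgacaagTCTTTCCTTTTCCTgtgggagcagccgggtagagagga
Rbmx, chrX:57393017-57393086, minus strand: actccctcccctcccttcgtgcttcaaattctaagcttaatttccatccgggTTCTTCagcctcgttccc
Tpt1, chr14:75845206-75845275, plus strand: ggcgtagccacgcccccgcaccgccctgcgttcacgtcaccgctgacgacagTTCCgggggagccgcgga

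The run was 9 bases long in Snhg12, 14 in Rpl13a and Rpl4, 6 in Rbmx and 4 in Tpt1. A run of at least 6 bases was present at 16 of the 34 starts listed for 32 of the genes that hold a member (47.1%), and at 21.0% of all 32851 starts in the table. The table holds no sequence for the small RNAs themselves. The run describes these letters only, and nothing about translation or release of the intronic RNA was measured.

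The box C/D genes that act in the cutting of ribosomal RNA precursors differed in size of change. Snord118 encodes U8, which is required for the maturation of the large-subunit RNAs and is transcribed from its own promoter. Its reading was 518 in Il34+/LacZ cells against 102 in Il34LacZ/LacZ cells, 4.53-fold lower, and it was the only one of the 54 genes that no other RefSeq gene held within its span. Snord14e is a copy of U14, a snoRNA of 18S processing, within the heat shock cognate gene Hspa8. It read 4789 and 3152, and the difference of -0.60 was within the probe set SD. Snord22, or U22, also of 18S processing, lies in Snhg1 and read 127 and 93.0, a difference of -0.39. Thus of these 3 genes Snord118 alone was more than 2-fold apart.

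Of the 22 box C/D genes at the floor, 3 were at least 2-fold higher in Il34LacZ/LacZ, beside 1.67% of all genes. With the trend removed there were again 3, beside 4.02%. These 3 guide ribose methylation. Snord61 had the largest difference of the 54 genes, with a reading of 80.5 in Il34+/LacZ and 746 in Il34LacZ/LacZ, or 7.89-fold. Snord47, within the long noncoding RNA gene Gas5, read 80.5 and 249, 2.75-fold higher. Snord35a, within the ribosomal protein gene Rpl13a, read 93.1 and 270, 2.62-fold higher. All 3 were above the floor on both arrays, and with the trend removed their differences were 3.54, 1.82 and 1.80. Snord55 was 1.66-fold higher at 68.1 and 124.

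In the lower direction, 7 of the 22 box C/D genes at the floor were at least 2-fold apart, beside 12.1% of all genes. Apart from Snord118, these were Snord57, Snord16a, Snord53, Snord35b, Snord104 and Snord49b. Snord57, from the gene of the core box C/D protein Nop56, read 246 and 36.9, at least 4.04-fold lower. Snord16a, from the ribosomal protein gene Rpl4, read 188 and 18.6, at least 3.16-fold lower. Its measured difference of -2.56 was the most negative of the class. Snord53 read 174 and 28.5, at least 2.94-fold lower, and Snord35b read 123 and 19.0, at least 2.15-fold lower. In these 4 genes the Il34LacZ/LacZ reading lay below the floor, so that the fold has only a lower bound. Snord104 read 794 and 333 and Snord49b 685 and 309, well above the floor on both arrays. Their differences of -1.22 and -1.11 shrank to -0.60 and -0.49 without the trend, less than the probe set SD. The reverse held for Snord82 and Snord96a, which passed the threshold only without the trend. Snord82 read 111 and 23.8, at least 1.96-fold lower as deposited, and Snord96a read 113 and 51.9, 1.90-fold lower.

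The remaining box C/D genes at the floor were Snord37, Snord15a, Snord49a, Snord95, Snord33, Snord8 and Snord15b. Snord37 read 65.0 and 7.37, Snord15a 64.1 and 22.8, and Snord49a 62.2 and 30.2, all with the Il34LacZ/LacZ reading below the floor, so that their folds are bounds of at least 1.25, 1.24 and 1.21. Snord95 differed by -0.59. Snord33, Snord8 and Snord15b differed by 0.31, 0.32 and 0.35. Another 9 box C/D genes stayed below the floor on both arrays, with readings from 9.02 to 44.6. They were Snord38a, Snord42a, Snord42b, Snord52, Snord58b, Snord73a, Snord73b, Snord85 and Snord87, of which 6 read lower and 3 higher in Il34LacZ/LacZ. The median difference of the 22 box C/D genes was -0.84, or -0.73 with the trend removed.

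Box H/ACA genes also lay on both sides, 4 of the 16 at the floor being called lower and 1 called higher, beside 12.1% and 1.67% of all genes. Snora16a read 40.9 in Il34+/LacZ, below the floor, and 363 in Il34LacZ/LacZ, at least 5.86-fold higher. Snora52, from the ribosomal stalk protein gene Rplp2, read 384 and 58.8, 5.35-fold lower. Snora31, from Tpt1, read 813 and 156, 4.82-fold lower. Both were above the floor on either array, and with the trend removed they differed by -2.02 and -1.66. Snora7a read 135 and 45.7, at least 2.33-fold lower. Snora21 had 2 probe sets, which gave 133 and 24.4 by the probe set used, at least 2.30-fold lower, and a difference of -2.16 by the other.

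Of the box H/ACA genes less than 2-fold apart, Snora44 at 1.98-fold lower was nearest to the threshold, with readings of 192 and 89.3. Snora75, from the nucleolin gene Ncl, read 174 and 88.8, a difference of -0.86. Snora73a and Snora73b are the 2 copies of U17, a snoRNA needed for 18S processing, and lie in the host Snhg3. Snora73b read 177 and 112 and Snora73a 117 and 126, differences of -0.60 and 0.09 that both lie within the probe set SD. Their sequences are closely related, so probes may not separate them fully. Snora74a differed by -0.52, Snora33 by -0.22, Snora62 by 0.20, Snora70 by 0.25, Snora23 by 0.35 and Snora30 by 0.45. Snora3 was bright on both arrays, at 885 and 807 by one probe set and 607 and 679 by the other, and the 2 probe sets disagreed in sign. Snora2b, Snora20, Snora41 and Snora69 stayed below the floor, and Snora2b had the identical reading of 6.93 on both arrays. The class median was -0.37, and -0.18 with the trend removed.

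The 3 Cajal body RNA genes all read lower in Il34LacZ/LacZ. Scarna17 read 1012 and 115, 7.82-fold lower, a difference of -2.97. This was the most negative of the 54 genes as deposited, whereas with the trend removed Snord16a at -2.74 lay below Scarna17 at -2.36, as it did with a pseudocount of 1, at -3.27 and -3.12. The annotated span of Scarna17 is 62 bases, and the target of its probe set could not be checked. Scarna13 read 120 and 69.9, 1.59-fold lower, and Scarna8 54.4 and 29.6, at least 1.09-fold lower. The last 2 differences lay within or near the probe set SD, at -0.67 and -0.63.

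**Figure D2:**
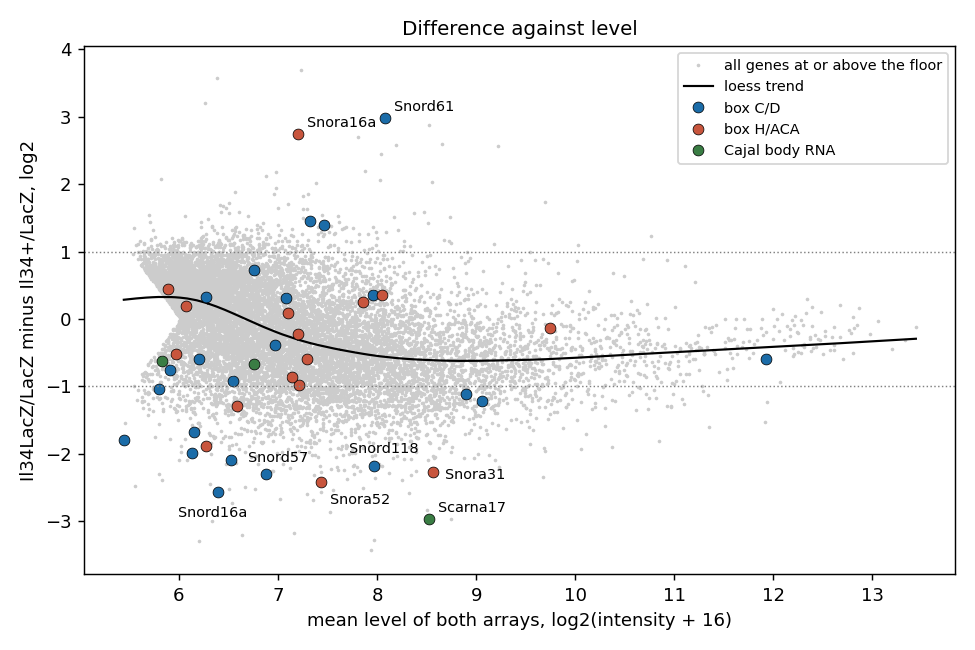
Difference between the arrays (log2) against the mean level for all 12843 genes at or above the floor (grey), with the loess trend (line), the 2-fold limits (dotted) and the 41 small nucleolar and Cajal body RNA genes coloured by class. Snord61 and Snora16a lie far above the trend at their level and Scarna17, Snora52, Snora31 and Snord118 far below it.

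Genes near the limits show how far the calls depend on them. Just above the floor lay Snora30 with a brighter reading of 53.4 and Scarna8 with 54.4, and just below it Snord73b with 44.6 and Snora20 with 40.2. At the fold threshold, Snord35b at 2.15-fold and Snord49b at 2.16-fold lay inside, and Snora44 at 1.98-fold and Snord82 at 1.96-fold outside.

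RefSeq placed 53 of the 54 genes within the span of another gene, 43 distinct holding genes in all. Ribosomal protein genes held 21, other protein-coding genes 17 and long noncoding RNA genes 15. Strand and exons are not in the table used, so the span is the only evidence for a host. Ribosomal protein genes held 14 genes that reached the floor, of which 5 were called lower and 1 higher (median -0.18). Other coding genes held 13, with 3 called lower and 1 higher (median -0.86), and long noncoding RNA genes 13, with 3 called lower and 2 higher (median -0.60). With the trend removed, 5 were lower in each of the first 2 kinds and 1 in long noncoding RNA genes, and the higher counts were 1, 1 and 2. Over all genes the shares were 12.1% lower and 1.67% higher as deposited, and 4.92% and 4.02% with the trend removed. The kinds of host were not tested against each other.

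By the probe set used for each, the holding genes spanned a narrower range than the small RNA genes within them. Over all probe sets of these holding genes at the floor, differences ran from -2.27 in Gas5 to 1.64 in Rpl27a. For 21 small RNA genes, both the gene and the one that holds it were measured at or above the floor, with 19 distinct holding genes. Of these 19, by the probe set used, Ncl and Srcap were at least 2-fold lower and none was 2-fold higher, beside 12.1% and 1.67% of all genes. The median difference of the 19 was -0.48 as deposited, and it was not computed with the trend removed. Ncl and Srcap differed by -0.50 and -0.54 with the trend removed, under 2-fold. By the probe set used, Haus6, which holds Scarna8, had the most negative measured difference at -1.42 (-1.74 with the trend removed) but a reading below the floor. Of the 21 small RNA genes 8 were called 2-fold apart, 6 lower and 2 higher, beside 12.1% and 1.67% of all genes. None of their 8 holding genes was called by the probe set used. Gas5, which holds Snord47, differed by -0.44 by that probe set and by -1.18 with the mean of its probe sets. The measured gaps between the 8 small RNA genes and their holding genes ran from 1.42 to 3.90 on the log2 scale. This is a description, since the 8 were picked for being far apart. The largest gap, of Snord61 and Rbmx, rests on an Rbmx reading below the floor. A gap of more than 0.63, the SD of single probe sets, was found in 14 of the 21 pairs, and of more than 1 in 11. A gap joins 2 probe sets, so its own error is larger than that SD. Across the pairs the differences had a Pearson r of -0.18 and a Spearman rho of -0.18. The points share the same 2 arrays, and Ncl and Rps3 each enter with 2 members.

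In 3 of the 8 pairs the holding gene differed little between the arrays as deposited. With the trend removed Rpl4, Tpt1 and Rpl23 differed by 0.39, 0.68 and 0.44, of which that of Tpt1 exceeds the probe set SD of 0.63. Rpl4 read 4670 and 4640, while Snord16a within it read 188 and 18.6. Tpt1, the translationally controlled tumour protein, read 4670 and 5717, while Snora31 was 4.82-fold lower. All 4 probe sets of Tpt1 differed by 0.00 to 0.31 as deposited. Rpl23 read 4669 and 4821, against a difference of -1.88 for Snora21. Ribosomal protein genes have many processed pseudogenes, so their probe sets may read several loci and these values are uncertain.

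In the opposite direction, the splicing regulator Rbmx, which holds Snord61, read 76.9 and 33.2, while Snord61 was 7.89-fold higher. The measured difference of Rbmx was -0.92, or -1.22 with the trend removed. Its Il34LacZ/LacZ reading lay below the floor, so that it was at least 1.44-fold lower. Gas5 read 3939 and 2893, and its 4 probe sets all differed downward, from -2.27 to -0.44, while Snord47 differed by 1.46. With the trend removed the probe set used for Gas5 differed by -0.006 and Snord47 by 1.82. For Snord57 in Nop56 and Snora52 in Rplp2, host and small RNA gene differed in the same direction to unequal extents. Nop56 differed by -0.89 against -2.31 for Snord57, and Rplp2 by -0.65 against -2.42 for Snora52. Wdr43 differed by -0.63 against -2.10 for Snord53. With the trend removed Nop56, Rplp2 and Wdr43 differed by only -0.26, -0.22 and -0.11, within the probe set SD. Snord57, Snora52 and Snord53 then differed by -2.17, -2.02 and -2.19.

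**Figure D3:**
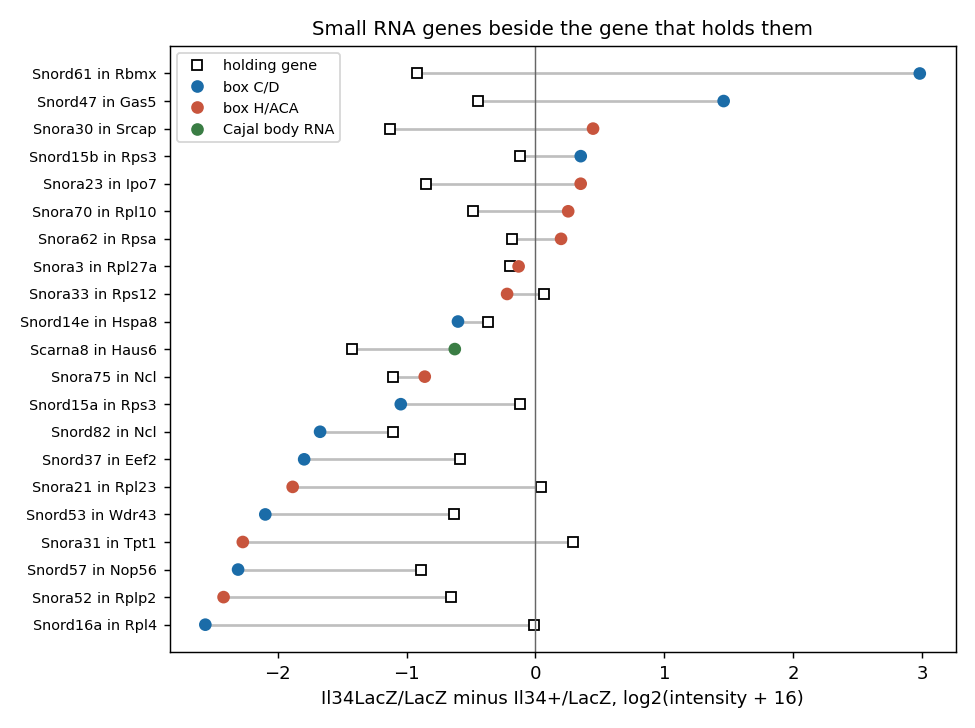
Difference between the arrays (log2) of the 21 small RNA genes (filled circles, coloured by class) and of the gene that holds each (open squares), where both reached the floor. Squares, from 1 probe set per holding gene, lie between -1.42 and 0.29, while circles spread from -2.56 to 2.98.

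Small RNA genes of a single host could also be set beside each other. There were 10 hosts with 2 members each. Snhg12 held the widest pair: Snora16a read 40.9 and 363, and Snora44 read 192 and 89.3, so that the differences of 2.74 and -0.98 lay 3.72 apart (3.71 with the trend removed). The pair from Rps3 was Snord15a at -1.04 and Snord15b at 0.35, 1.40 apart (2.26 with the trend removed). Snord35a and Snord33 of Rpl13a were 1.08 apart, with both higher. Snord82 and Snora75 of Ncl were 0.81 apart (1.37 with the trend removed), and those of Snhg3, 0.69. The pairs Snord49a and Snord49b in 2410006H16Rik and Snord96a and Snord95 in Rack1 differed by 0.35 and 0.33, within the probe set SD. The pairs Snord42a and Snord42b in Rpl23a and Snord73a and Snord73b in Rps3a1 were below the floor. Of the 10 pairs, 4 had opposite signs, and 1 of the 10 is not described here.

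Annotated length varied within and between classes. Box C/D genes were 45 to 148 bases long with a median of 68, and box H/ACA genes 61 to 205 with a median of 125. The 3 Cajal body RNA genes were 62 to 275 bases long with a median of 118. The 4 higher genes had a median length of 77 bases, the 12 lower genes 89 and the 25 uncalled genes 117. These values were not tested, and class and length go together.

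Of the 8 core proteins that bind these RNAs, none was 2-fold apart as deposited, beside 12.1% of all genes lower and 1.67% higher. Among the 8, 7 read lower and Gar1 read higher. The 4 core box C/D proteins all read lower, with a median of -0.76, or -0.18 with the trend removed. Nop56 and Nop58, which form the platform of the particle, read 601 and 318, and 221 and 117. The methyltransferase Fbl read 702 and 432, and Snu13, the protein that recognises the kink-turn, 1245 and 770. Each of the 4 was between 1.60-fold and 1.85-fold lower. Of the core box H/ACA proteins, Nop10 was 1.59-fold lower, Nhp2 1.36-fold and dyskerin, Dkc1, at least 1.29-fold lower. Gar1 went the other way, at 219 and 325, a difference of 0.53 that became 1.11 with the trend removed. That passed 2-fold, as did 4.02% of all genes in the higher direction with the trend removed. The median of these 4 was -0.55, or 0.02 with the trend removed.

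Factors that assemble the particles and proteins of Cajal bodies had 2 called genes each. Of 10 assembly factors at the floor, 2 were at least 2-fold lower (20%, beside 12.1% of all genes) and none higher, with a median of -0.34. Ruvbl1, an ATPase of the assembly chaperone, read 185 and 62.1, 2.57-fold lower, and Tgs1, the cap hypermethylase, 130 and 55.3, 2.04-fold lower. Shq1, a chaperone of dyskerin, was at least 1.68-fold lower and Znhit6 at least 1.49-fold lower. Of 10 Cajal body genes at the floor, again 2 were at least 2-fold lower (20%) and none higher, with a median of -0.66. Smn1, the core of the complex that loads spliceosomal RNAs, read 224 and 66.1, 2.92-fold lower, and Uspl1, a Cajal body SUMO protease, 159 and 45.0, at least 2.71-fold lower. Ice1 was 1.75-fold and Ddx20 at least 1.69-fold lower. Coil, the scaffold protein coilin, stayed below the floor at 43.6 and 40.5. Wrap53, which carries small Cajal body RNAs to the body, read 98.9 and 137.

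Other short structured RNAs were compared as a neighbouring group. At the floor were 9 such genes, of which 4 were called lower, none was called higher and the median was -0.60, beside 12.1% and 1.67% of all genes called (4.92% and 4.02% with the trend removed). Rnu3a, a gene of the box C/D snoRNA U3 that is named outside the symbol rule, read 1191 and 268, 4.26-fold lower. Rmrp, the RNA of RNase MRP, read 3432 and 967, 3.51-fold lower. The vault RNA gene Vaultrc5 was 3.69-fold lower and Rnu12, of the minor spliceosome, 3.57-fold lower. With the trend removed these 4 differed by -1.47 to -1.30. The RNase P RNA gene Rpph1 and the 7SK gene Rn7sk, both bright, differed by -0.60 and -0.44, and Rny3 and the telomerase RNA gene Terc by 0.34 and 0.39. MicroRNA genes, also short, had a median of 0.43 over 94 genes at the floor, of which 9 were at least 2-fold higher and 6 lower, beside 1.67% and 12.1% of all genes. With the trend removed 18 were higher and 7 lower, beside 4.02% and 4.92%. The difference between these groups and the small nucleolar RNA genes was not tested.

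**Figure D4:**
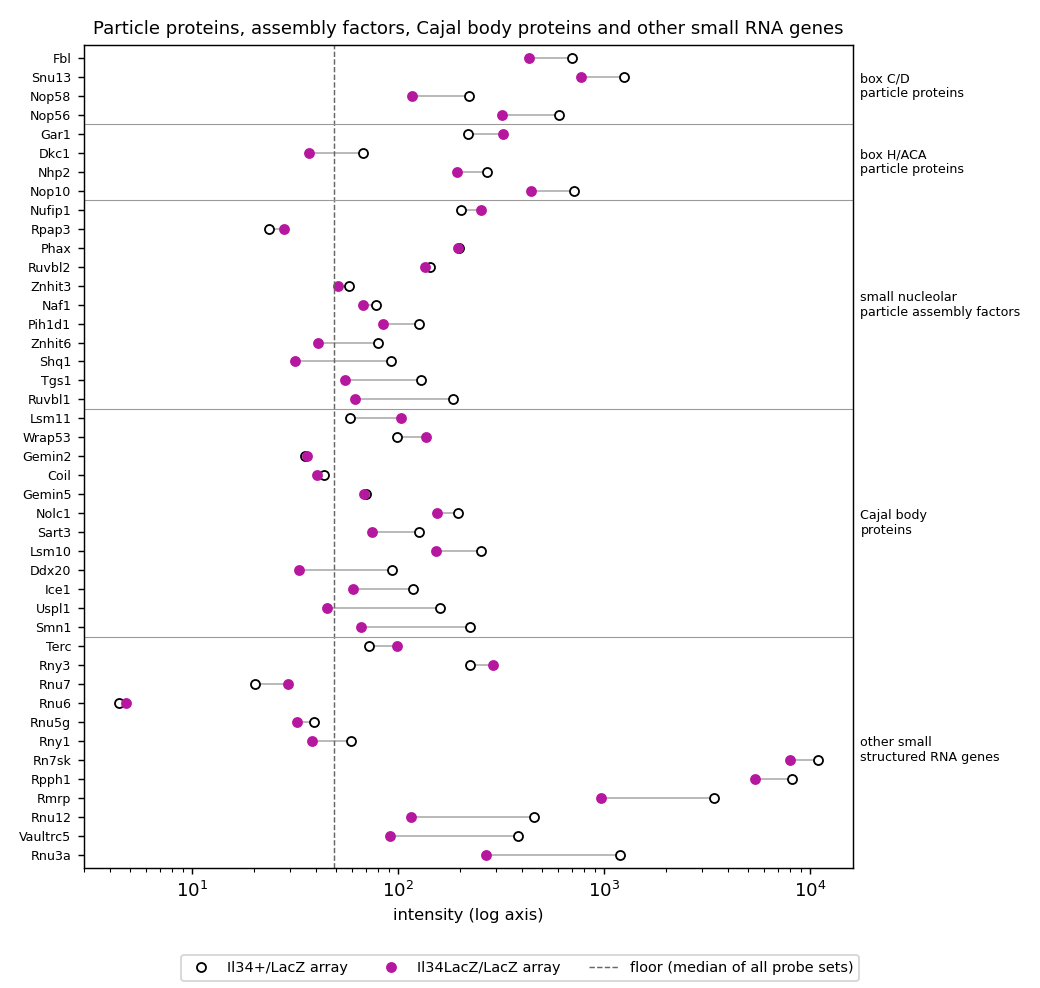
Intensity (log axis) on the Il34+/LacZ array (open circles) and the Il34LacZ/LacZ array (filled circles) for particle proteins, assembly factors, Cajal body proteins and other small structured RNA genes, with the floor at 48.7 as a dashed line. All 4 core box C/D proteins read lower in Il34LacZ/LacZ, Gar1 read higher, and Rnu3a, Vaultrc5, Rnu12 and Rmrp are the small RNA genes furthest to the left of their open circle.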

How the data were processed

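One processed intensity per probe set and array was deposited by the authors. How probes were summarised, background removed and arrays scaled is not given in the sources used here. That the scale is linear was judged from the values. Of 34760 probe sets, 448 had equal readings on both arrays. Names came from the platform annotation: 21640 probe sets had 1 symbol, 1321 several and 11799 none. All 54 genes matched RefSeq (GRCm38.p6) by gene number. The loess trend of the difference on mean level used a fraction of 0.3 and probe sets with 1 symbol. Python 3.11.15, numpy 2.4.6, pandas 2.3.3 and statsmodels 0.14.6 were used, and the calculation was tested on simulated data. A planned check of host strand was not made, as the gene table holds no strand.

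Members and gene lists were chosen with earlier results of these data known. All 54 members are accounted for. Of 23 RNAs to be named whatever their values, 13 were members. Beside them, up to 4 genes per list with the largest floored difference were named, as were the holding genes of members called 2-fold apart with and without the trend; further genes were named after their values were seen. Alternatives changed scaling, pseudocount, floor, probe set rule, copies and fold threshold. The number of arrays limits precision. A few results on holding genes are not reported here.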

Additional observations from a re-analysis of the deposited data

How the results depend on the processing

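No paired analysis was possible because each genotype has 1 array and the labels give no replicate numbers. Of the 6 summaries, the 4 medians stayed negative under every alternative run for them, and the 2 counts have no direction. The count of genes at least 2-fold lower, 12, became 6 with the floor at the 75th percentile, where 26 genes were left, 19 at a 1.5-fold and 5 at a 4-fold threshold. The count of higher genes, 4, became 2 at 4-fold. The median over members was -0.78 with each array centred on its median, -0.78 with a pseudocount of 1, -0.46 with a pseudocount of 64 and -0.73 with the raised floor. The box C/D median was -0.99, -1.06, -0.58 and -0.60 in the same 4 settings, -0.68 with quantile normalization, -0.60 without a floor and -0.60 with 1 value per family of copies. The box H/ACA median was -0.18 with the trend removed, -0.13 with quantile normalization and -0.73 with the raised floor. With that floor Scarna17 alone was left of the Cajal body RNA genes, at -2.97. Higher genes made up 12.2% of all called genes as deposited, 44.9% with the trend removed, 42.9% with quantile normalization and 5.5% with median centring, against 25%, 25%, 28.6% and 20% of the called members. Median centring moved the median of all genes from -0.16 to -0.33. In 6 settings computed per gene, all 4 higher and 7 of the 12 lower members stayed 2-fold apart. Those that did not were Snora21, Snora7a, Snord104, Snord35b and Snord49b. Depth of signal limits the 4 box C/D and 2 box H/ACA genes called lower whose dimmer reading lay below the floor. The causes of these shifts were not tested.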

Other observations

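Genes of the nucleolus and of RNA trimming were also compared. At the floor were 21 genes of the nucleolus and of ribosomal RNA transcription, of which 3 were called 2-fold lower and none higher, and the median was -0.45 (-0.20 with the trend removed), beside 12.1% and 1.67% of all genes. Utp14a alone was called lower with the trend removed, beside 4.92% of all genes, and Rrn3 and Ncl differed by -0.86 and -0.50. Utp14a, of the small-subunit processome, read 144 and 31.2, at least 2.47-fold lower. Rrn3, which recruits RNA polymerase I, read 234 and 90.9, 2.34-fold lower, and Ncl 1043 and 477, 2.15-fold lower. Tcof1 was 1.91-fold lower. Of 15 genes of the RNA exosome and snoRNA trimming, 4 were at least 2-fold lower and none higher, beside the same 12.1% and 1.67%, with a median of -0.45. With the trend removed 3 were called lower, beside 4.92% of all genes, and the median was -0.40. Of these, Exosc1 and Exosc7 were called both ways. The third was Exosc9, at 113 and 24.6, a measured difference of -1.66 and at least 1.99-fold lower as deposited. Xrn2 and Mtrex differed by -0.90 and -0.82 with the trend removed. The nuclear exonuclease Xrn2 was 2.74-fold lower, at 414 and 141. The helicase Mtrex and the exosome subunits Exosc1 and Exosc7 were 2.32-fold, at least 2.33-fold and 2.29-fold lower.

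Host genes without a protein were listed separately. Of 7 at the floor, Snhg5 was at least 2-fold lower, at 405 and 170, and none was higher, beside 12.1% and 1.67% of all genes. Snhg5 differed by -0.61 with the trend removed, and none of the 7 was then called, beside 4.92% of all genes lower and 4.02% higher. The median was 0.09, or 0.23 with the trend removed. Snhg15 differed by 0.28 and Snhg16 by 0.17.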
